A study of Mus musculus with 12 samples.

Results

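Hypomethylated regions (HMRs), stretches of CpGs with low methylation called along a methylated genome, were followed from the neonatal to the adult β cell at sites away from protein-coding genes. A total of 1811 intergenic HMRs gained methylation after birth, of 84472 merged autosomal HMRs. These regions were selected on measured values: the HMRs of the 4 pooled sets (2 subtypes at 2 stages) were merged, regions under 5 kb with at least 50 reads in each pool were kept, and the level, given as the percentage of reads over the CpGs of a region that were methylated, had to be at least 25 points higher at postnatal day 60 (P60) than at postnatal day 2 (P2) in both subtypes. The midpoint had to lie outside every protein-coding gene and over 1 kb from every protein-coding start. Of 81983 regions with enough reads and a length under 5 kb, 5169 (6.30%) gained by that limit in both pools, and of the 33247 intergenic ones 1811 did (5.45%). The gain from P2 to P60 chose the regions and is given below as a description without a test.

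Methylation of cytosine in CpG dinucleotides is written by the DNMT enzymes and can be removed by dilution at cell division or through oxidation by the TET enzymes. Distal regions bound by transcription factors are usually low in methylation, and such regions often mark enhancers that are, or once were, in use in the lineage of the cell. After birth, β cells leave a phase of rapid division and acquire mature insulin secretion.

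Cells came from islets of mice with the genotype Myt1cCre; Ngn3nCre; Rosa26eYFP, InsApple. The fragments of a split Cre are driven by Myt1 and Ngn3 (Neurog3), so progenitors that expressed both genes, and their descendants (M+N+), carry eYFP, and the others (M-N+) do not. InsApple, an insulin-driven fluorescent protein present in every group, marked β cells for sorting, although the sample titles name the reporter eGFP and the labelled cell type is all islet cells. M-N+ and M+N+ cells were each sequenced in 2 libraries at P2 and 4 libraries at P60 by tagmentation-based whole genome bisulfite sequencing (WGBS), and each library combined sorted cells of several batches of mice. Read counts were deposited for 1 pool per subtype and stage, named B1 and B2. They were taken as M-N+ (B1) and M+N+ (B2) cells, since the deposited lists of subtype differences then hold as many regions in each direction as the study states. For single libraries the files give where HMRs were called and no read counts, so the levels have no replicate error and their intervals cover counting error only. A read was counted at each CpG it covers, so the counts within a region are not independent and these intervals can be too narrow.

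Among regions with an HMR in all 4 P2 libraries and in none of the 8 P60 libraries, the DNA of the 5 with the largest gain is shown first, because it carries the CpGs whose methylation changed. Each is up to 300 bases of the GRCm39 (mm39) plus strand at the midpoint of the region, 5′ to 3′, with CpG dinucleotides in capitals.
near Pou3f1, chr4:124294493-124294792: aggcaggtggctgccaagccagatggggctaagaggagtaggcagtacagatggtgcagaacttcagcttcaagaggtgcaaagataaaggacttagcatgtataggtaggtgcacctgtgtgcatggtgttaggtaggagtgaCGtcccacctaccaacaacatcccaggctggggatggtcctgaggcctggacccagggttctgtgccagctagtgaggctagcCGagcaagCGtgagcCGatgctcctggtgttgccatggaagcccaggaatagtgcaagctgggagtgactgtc
near Actrt2, chr4:154794415-154794714: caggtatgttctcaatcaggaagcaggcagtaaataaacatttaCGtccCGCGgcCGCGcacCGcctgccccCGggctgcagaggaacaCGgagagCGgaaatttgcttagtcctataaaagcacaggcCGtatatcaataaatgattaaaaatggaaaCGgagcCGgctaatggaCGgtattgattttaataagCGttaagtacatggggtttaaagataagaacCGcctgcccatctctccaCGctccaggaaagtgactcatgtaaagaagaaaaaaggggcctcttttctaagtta
near Insc, chr7:114533122-114533421: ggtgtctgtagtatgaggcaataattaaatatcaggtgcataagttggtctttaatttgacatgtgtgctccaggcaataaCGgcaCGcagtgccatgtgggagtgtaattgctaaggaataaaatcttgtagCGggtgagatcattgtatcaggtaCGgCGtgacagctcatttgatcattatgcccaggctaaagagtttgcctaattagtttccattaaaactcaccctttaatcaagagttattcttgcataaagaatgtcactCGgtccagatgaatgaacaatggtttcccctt
near Sdk2, chr11:114056594-114056872: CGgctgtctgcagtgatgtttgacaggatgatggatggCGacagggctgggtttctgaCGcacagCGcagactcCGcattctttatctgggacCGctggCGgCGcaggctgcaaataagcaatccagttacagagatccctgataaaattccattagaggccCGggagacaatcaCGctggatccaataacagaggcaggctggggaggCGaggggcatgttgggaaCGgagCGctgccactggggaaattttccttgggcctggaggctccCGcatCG
near Ankrd60, chr2:173427869-173428168: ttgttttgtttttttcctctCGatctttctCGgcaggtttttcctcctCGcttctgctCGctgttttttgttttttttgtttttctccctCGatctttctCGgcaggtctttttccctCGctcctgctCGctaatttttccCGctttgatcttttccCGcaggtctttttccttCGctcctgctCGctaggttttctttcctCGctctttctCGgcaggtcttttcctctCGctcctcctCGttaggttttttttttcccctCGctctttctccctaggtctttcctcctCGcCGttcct
The stretch near Pou3f1 holds 4 CpGs and that near Insc holds 6, whereas those near Sdk2, Actrt2 and Ankrd60 hold 15, 16 and 19. A further 3 were picked after their values were seen: the largest gain around Hes1, a gene with many of these regions, again with CpGs in capitals, and the regions near Kcnj11 and Ghrl, where capitals mark the GATA-factor motif AGATAAG or its reverse complement CTTATCT.
near Hes1, chr16:29964139-29964438: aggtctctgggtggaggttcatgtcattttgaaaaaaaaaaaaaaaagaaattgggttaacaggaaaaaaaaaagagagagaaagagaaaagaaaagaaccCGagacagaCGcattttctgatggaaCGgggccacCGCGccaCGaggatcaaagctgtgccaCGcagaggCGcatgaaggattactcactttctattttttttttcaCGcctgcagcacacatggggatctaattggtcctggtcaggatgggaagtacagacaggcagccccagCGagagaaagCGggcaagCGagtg
near Kcnj11, chr7:45742576-45742875: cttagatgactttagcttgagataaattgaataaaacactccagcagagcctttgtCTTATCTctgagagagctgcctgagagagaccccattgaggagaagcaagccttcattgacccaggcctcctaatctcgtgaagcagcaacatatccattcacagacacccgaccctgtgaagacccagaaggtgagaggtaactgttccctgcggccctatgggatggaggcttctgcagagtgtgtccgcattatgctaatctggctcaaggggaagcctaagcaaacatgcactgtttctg
near Ghrl, chr6:113698146-113698433: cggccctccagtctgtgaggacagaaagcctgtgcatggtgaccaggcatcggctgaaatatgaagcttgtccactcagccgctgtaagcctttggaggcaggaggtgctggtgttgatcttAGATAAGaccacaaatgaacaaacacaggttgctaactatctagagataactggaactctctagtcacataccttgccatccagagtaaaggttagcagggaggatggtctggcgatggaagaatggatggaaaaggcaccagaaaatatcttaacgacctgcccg

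Mean depth per autosomal CpG was 25.2 (B1) and 25.3 (B2) reads for the P2 pools, and 45.7 and 45.4 reads for the P60 pools. The run identifiers carry 3 prefixes, one for all P2 libraries, one for P60 replicates 1 and 2 and one for P60 replicates 3 and 4, so stage and prefix cannot be told apart. Labelled sex went against the X chromosome in the P2 M-N+ libraries. Of 254 X-linked HMRs present in every male and no female library of P60, the P2 M-N+ library labelled female held 92.5% and the one labelled male 13.4%, while the P2 M+N+ libraries held 13.0% (female) and 84.3% (male). In 1 kb around their starts, the β-cell genes Nkx6-1 and Pdx1 had levels under 1% in all pools, and Iapp and Slc2a2 were at 7.79% or lower. The promoters of Ins1, Ins2 and G6pc2 fell from P2 to P60: Ins1 was at 28.3% and 35.1% at P2 in pools B1 and B2 and at 7.87% and 5.74% at P60, Ins2 went from 12.6% and 20.6% to 4.86% and 5.47%, and G6pc2 from 15.1% and 12.7% to 2.04% and 2.35%. Promoters of the immune genes Ptprc and Cd3e were between 72.4% and 81.9%, those of 5 acinar genes between 39.2% and 85.8%, of the endothelial genes Pecam1 and Cdh5 between 65.3% and 83.0%, and of Col1a1 between 30.3% and 38.3%. Of the hormone genes of other islet cells, Gcg, Ppy and Ghrl were between 54.6% and 87.3% and Sst was low, between 14.7% and 19.2%. The part of these promoter shifts, and of the cells behind them, in the gains described next was not tested.

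The median level of the 1811 regions was 19.8% in pool B1 and 18.4% in pool B2 at P2, and 53.9% and 52.6% at P60. The median gain was 32.7 points in B1 (quartiles 28.8 and 38.3) and 33.2 points in B2 (29.0 and 38.7), with the highest at 65.6 and 61.2 points. A typical region had 219 and 222 reads at P2 and 405 and 400 at P60, summed over its CpGs. With these counts taken as independent, the gain had a 95% counting interval of about 7.11 points either way in B1 and 7.02 in B2. Over the 31436 other intergenic HMRs the medians were 12.6% and 13.0% at P2 and 16.3% and 16.2% at P60. The whole autosomal genome did not gain: 69.3% and 70.1% of reads on CpGs were methylated at P2, and 67.9% and 67.6% at P60. The opposite change was rare, since 35 intergenic HMRs (0.105%) lost at least 25 points in both pools.

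Most of the gaining regions ended at an intermediate level rather than near full methylation. At P60 the level was 50% or more in 1204 regions (66.5%) in pool B1 and in 1097 (60.6%) in pool B2, and it was 75% or more in 39 and 31 regions. A gain of at least 50 points in both pools was found in 32 regions (1.77%). The plot of levels at P2 against P60 shows a continuous cloud without a gap at the limit. Just inside the limit were regions near Topaz1 (2.79% to 27.8% in B1), Sec63 (15.7% to 40.7% in B2) and Frmd6 (31.1% to 56.1% in B1). Just outside it were regions near Olig3 (24.6% to 49.6% in B1), Opcml (23.2% to 48.1% in B2) and Scmh1 (25.9% to 50.9% in B1).

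**Figure D1:**
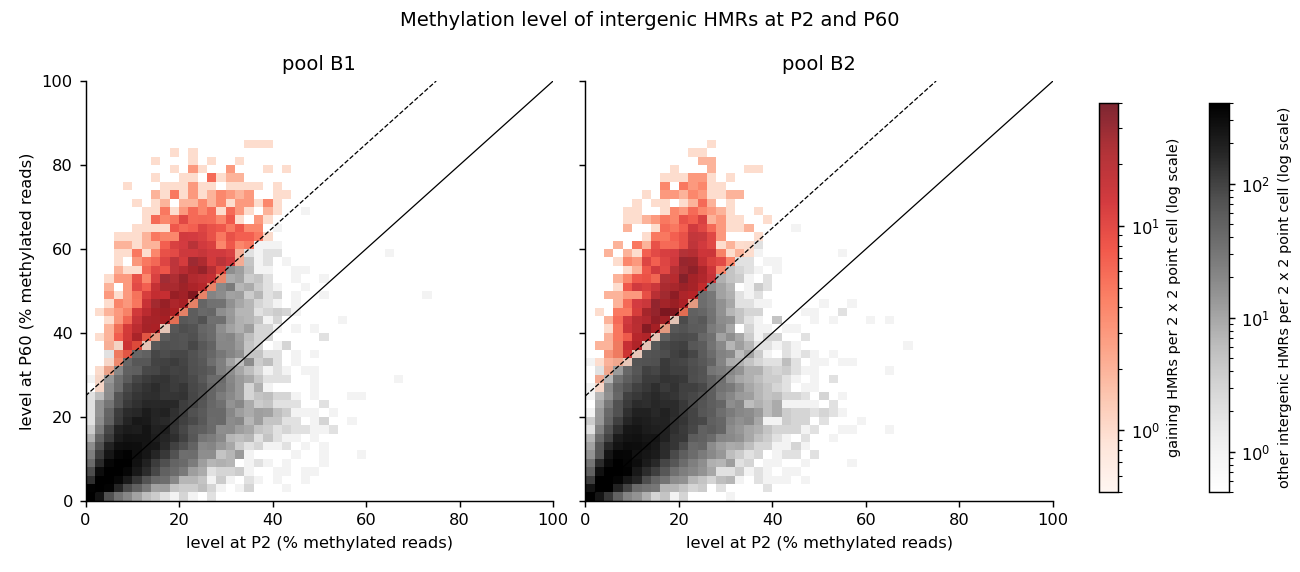
Level of intergenic HMRs at P2 (x axis, % methylated reads) and P60 (y axis) in pool B1 (left) and pool B2 (right), as the number of regions per cell of 2 by 2 points on a log colour scale. Red cells hold the 1811 gaining regions, grey cells the other 31436, the solid line marks equal levels and the dashed line a gain of 25 points; medians of the red regions move from 19.8% to 53.9% in B1 and from 18.4% to 52.6% in B2.

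Nearly all CpGs of the regions were higher at P60, by uneven amounts. Their reads are those that chose the regions, so a rise at most CpGs follows largely from that choice. The regions hold 17937 CpGs, of which 17618 (98.2%) had at least 10 reads in every pool. Of these, 97.3% were higher at P60 in both pools, 60.3% were higher by at least 25 points and 8.59% by at least 50 points, while 0.182% were lower in both pools. Of the CpGs of the other intergenic HMRs, 39.1% were higher in both pools, 4.19% by at least 25 points, and 13.1% were lower in both. In 1441 of 1795 gaining regions with at least 5 CpGs of 10 or more reads in every pool (80.3%), every such CpG was higher in both pools. Every CpG was higher by at least 25 points in both pools in 90 regions (5.01%), and in 464 (25.8%) under 50% of the CpGs were. Single CpGs were mostly intermediate as well. At P60, 79.0% of them in B1 and 80.7% in B2 had a level between 20% and 80%, and 13.5% and 11% were at 80% or more. With each region cut into 5 equal parts, the middle part was lowest at both stages, with 18.4% in B1 and 16.6% in B2 at P2 and 52.6% and 51.1% at P60. The first part was at 20.9% and 19.1% at P2 and at 55.1% and 53.7% at P60.

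Surrounding DNA, which the choice of regions did not use, changed far less. At 1 to 3 kb from the region, outside any HMR, the median level was 78.9% (B1) and 79.3% (B2) at P2 and 82.3% and 81.4% at P60. The regions thus stayed a median of 27.3 points (B1) and 28.2 points (B2) below their flanks at P60, after 58.5 and 60.8 points at P2. Only 17 regions in B1 and 11 in B2 reached the level of their flanks at P60. Stable intergenic HMRs, 19858 regions that moved by less than 10 points in both pools, were 64.7 and 64.1 points below their flanks at P60. In the plot of mean level by distance, the dip at the gaining regions became shallower at P60 without vanishing.

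**Figure D2:**
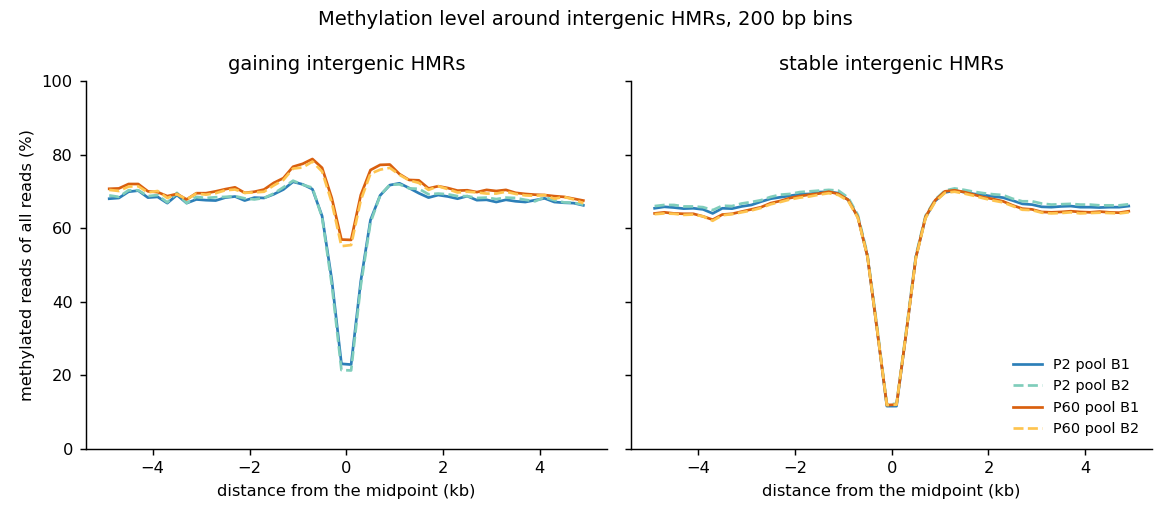
Methylated reads as a percentage of all reads (y axis) in 200 bp bins by distance from the midpoint (x axis, kb), for the gaining regions (left) and stable intergenic HMRs (right) in the 4 pools. In the bin left of the midpoint the gaining regions are at 23.1% (B1) and 21.4% (B2) at P2 and at 56.9% and 55.1% at P60, while the stable ones stay between 11.6% and 12.2%.

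Among the 8 regions with the largest gain, taken from those with an HMR in all 4 P2 libraries and in none of the 8 P60 libraries, the level at P60 ranged from 60.7% to 80.3%. The first, 367 bp at chr4:124294460-124294826, lies 255957 bp upstream of Pou3f1, a POU-domain transcription factor gene, inside an annotated long non-coding RNA gene. Its 8 CpGs had 22.0% methylation in B1 (95% Wilson interval 17.1 to 27.9%) and 16.1% in B2 (12.1 to 21.1%) at P2, and 79.1% (74.8 to 82.9%) and 77.3% (72.9 to 81.1%) at P60. Each of the 8 CpGs gained at least 43.9 points in both pools. The flanks of this region stood at 88.6% and 86.2% at P60.

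A region 42241 bp upstream of Actrt2, an actin-related gene, at chr4:154794378-154794751, went from 11.4% and 8.80% at P2 to 70.3% and 65.4% at P60 in pools B1 and B2. All 21 of its CpGs gained in both pools, by 19.3 to 87.2 points in B1. Near Insc, a gene for a regulator of spindle orientation, the region chr7:114533120-114533423 went from 16.3% and 17.4% to 70.5% and 71.8%. Upstream of Sdk2, which encodes a cell adhesion protein, chr11:114056594-114056871 went from 26.8% and 19.5% to 80.3% and 79.2%, and there the P60 level came close to that of the flanks, at 81.4% and 81.2%. In these 4 regions the counting intervals of P2 and P60 were far apart in both pools, which follows from their choice by the largest gain.

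The longest and most CpG-dense of the 8 lies 7885 bp upstream of Ankrd60, at chr2:173427212-173428825, inside a long non-coding RNA gene. Its 123 CpGs, in DNA that reads as repeated units rich in C and T, had the lowest P2 levels of the 8, 6.80% of 2529 reads in B1 and 7.54% of 2479 in B2, and reached 61.0% of 5650 and 60.7% of 6324 reads at P60. Every one of the 123 CpGs was higher at P60 in both pools. Upstream of Cpa5, a carboxypeptidase gene, chr6:30598226-30598388 went from 14.9% and 10.8% to 67.9% and 71.3%. The region chr3:152689151-152689473, 1408 bp upstream of St6galnac5, a sialyltransferase gene, went from 16.7% and 21.2% to 71.7% and 74.2%. Near Trpc7, a cation channel gene, chr13:57255604-57256161 went from 18.5% and 19.5% to 74.4% and 72.2%. None of the 8 differed between the pools at either stage by Fisher's exact test at an adjusted p of 0.05.

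HMRs of single libraries describe the same change, and the calls of both stages rest on the reads that chose the regions. At P2, an HMR overlapped 53.3% and 52.1% of the regions in the M-N+ libraries (replicates 1 and 2) and 67.0% and 56.7% in the M+N+ libraries. At P60 the shares were 1.33%, 1.21%, 0.607% and 1.10% in M-N+ replicates 1 to 4 and 0.552%, 1.27%, 1.10% and 1.33% in M+N+ replicates 1 to 4. P2 and P60 libraries did not overlap, and the highest P60 library stood far below the lowest P2 library, a separation that the choice of regions brings about. In the pools, 1194 regions (65.9%) had an HMR in both P2 pools and in no P60 pool, 422 (23.3%) in pool B2 of P2 alone and 146 (8.06%) in pool B1 of P2 alone. An HMR of pool B1 at P2 overlapped 76.7% of the regions and 80.7% of the other intergenic HMRs, and one of pool B2 91.9% and 81.8%. Other intergenic HMRs were overlapped by library HMRs at 60.6% to 66.3% at P2 and at 38.4% to 53.7% at P60, also without overlap between the stages. Of the 1811 regions, 620 (34.2%) had an HMR in all 4 P2 libraries, against 50.5% of the other intergenic HMRs. No P2 library had one in 324 (17.9%), against 22.8%, and no P60 library in 1758 (97.1%), against 32.9%. Both conditions at their strictest, all 4 P2 libraries and none of 8 at P60, were met by 568 regions (31.4%), and 4 regions had an HMR in all 8 P60 libraries.

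Within P60 the shares are given without a test, since the choice of regions had brought them near 0 in every library. The share was 1.06% ± 0.317 in M-N+ and 1.06% ± 0.353 in M+N+ libraries (SD, n = 4 each), a difference of 0 points. Within replicates 1 and 2 the difference was -0.359 points and within replicates 3 and 4 it was 0.359 points. The male libraries of P60 had 1.23% ± 0.0943 and the female ones 0.897% ± 0.378 (n = 4 each), a difference of 0.331 points, with 0.304 points within replicates 1 and 2 and 0.359 within replicates 3 and 4. For the other intergenic HMRs the shares of the same libraries did not overlap between the sexes, with 51.5% ± 2.12 in male and 41.0% ± 3.50 in female libraries (two-sided exact permutation test, p = 0.0286, the smallest value 4 against 4 libraries can give, and adjusted p = 0.171 by Benjamini-Hochberg over the 6 comparisons of libraries computed). All autosomal HMRs called in a P60 library numbered 44822 to 48399 in male and 37067 to 43554 in female libraries. The part of these totals in the sex difference was not tested. At P2, M+N+ libraries had 61.9% ± 7.30 and M-N+ libraries 52.7% ± 0.859 (n = 2 each), 9.14 points more in M+N+, and 2 against 2 libraries cannot give an exact p below 0.333. Leaving out M+N+ replicate 1 brought that difference to 3.98 points. Other intergenic HMRs differed by 0.363 points in the same P2 libraries. Gaining HMRs inside genes showed a like pattern, with 66.7% and 57.6% in M+N+ and 53.5% and 53.4% in M-N+ libraries (replicates 1 and 2).

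**Figure D3:**
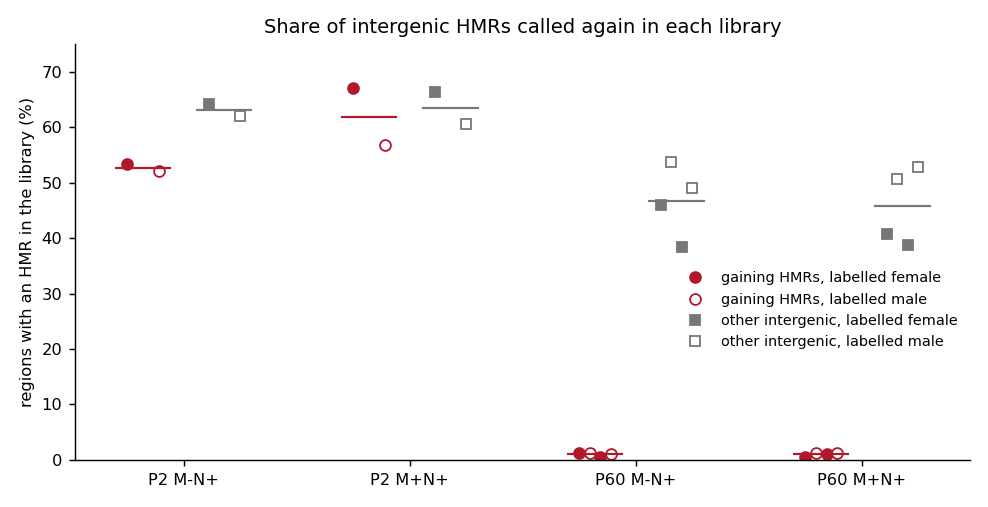
Share of regions overlapped by an HMR of each library (y axis, %), by subtype and stage (x axis), for the 1811 gaining regions (red circles) and the other intergenic HMRs (grey squares), filled for libraries labelled female and open for male, with the group mean as a line. The red points lie between 52.1% and 67.0% at P2 and between 0.552% and 1.33% at P60, the grey ones between 38.4% and 66.3% throughout.

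The levels themselves allowed a comparison of the pools within each stage, a contrast the limit on the gain did not use, although the same reads entered the choice of regions. The values are a description of these pools. The median difference, B2 minus B1, was -1.82 points at P2 and -1.60 points at P60, and B2 was lower in 65.9% and 65.3% of the regions, against medians of 0.241 and -0.229 points and shares of 46.7% and 53.6% for the other intergenic HMRs. Gaining HMRs inside genes had medians of -1.46 and -1.51 points. The shift also went with the pool in which the HMR had been called at P2, a split fixed in part by its definition. A call rests on the same P2 reads as the level. In the 422 regions with an HMR in pool B2 but not B1, B2 was lower in 94.3% at P2 (median -5.98 points), in the 146 with an HMR in B1 but not B2 it was lower in 8.90% (median 5.12 points), and in the 1243 with an HMR in both it was lower in 62.9% at P2 and 65.0% at P60. The gain was larger in B2 in 944 regions (52.1%), with a median difference of 0.277 points (quartiles -3.41 and 3.84).

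Reads of each region in B1 and B2 were then tested with two-sided Fisher's exact tests, adjusted by Benjamini-Hochberg over all 82492 merged autosomal HMRs with enough reads. This test compares 2 pools of reads and not mice, so its p-values do not hold the spread between animals. It also takes the counts of one read at several CpGs as independent. The p-values can therefore be too small, most of all where CpGs lie close together. At P2, 29 of the 1811 regions (1.60%) were called lower in B2, against 0.744% of all tested HMRs, and 5 (0.276%) were called higher, against 1.34%. At P60, 28 regions (1.55%) were called lower in B2, against 1.06% of all tested, and 7 (0.387%) higher, against 0.881%. The skew was shared by gaining HMRs inside genes, with 1.89% called lower and 0.451% higher at P2. At P60 their shares were 1.86% lower and 0.0902% higher. At an unadjusted p of 0.05, 273 regions (15.1%) passed at each stage, near the 14.5% (P2) and 13.8% (P60) of all tested HMRs. Of the 34 regions called at P2 and the 35 called at P60, 1 was called at both stages and in opposite directions. The like count over all tested HMRs is not given, and with so few calls this overlap does not say whether differences persist. Calls at P2 were spread unevenly by the pool in which the HMR had been called: of the 29 lower calls, 16 fell among the 422 regions with an HMR in pool B2 but not B1 of P2. HMR calls and tests rest on the same P2 reads, so this spread follows in part from how the regions were split. In the 1243 regions with an HMR in both P2 pools, the medians were -1.36 points at P2 and -1.54 points at P60, with 13 and 21 lower calls and 2 and 7 higher ones.

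**Figure D4:**
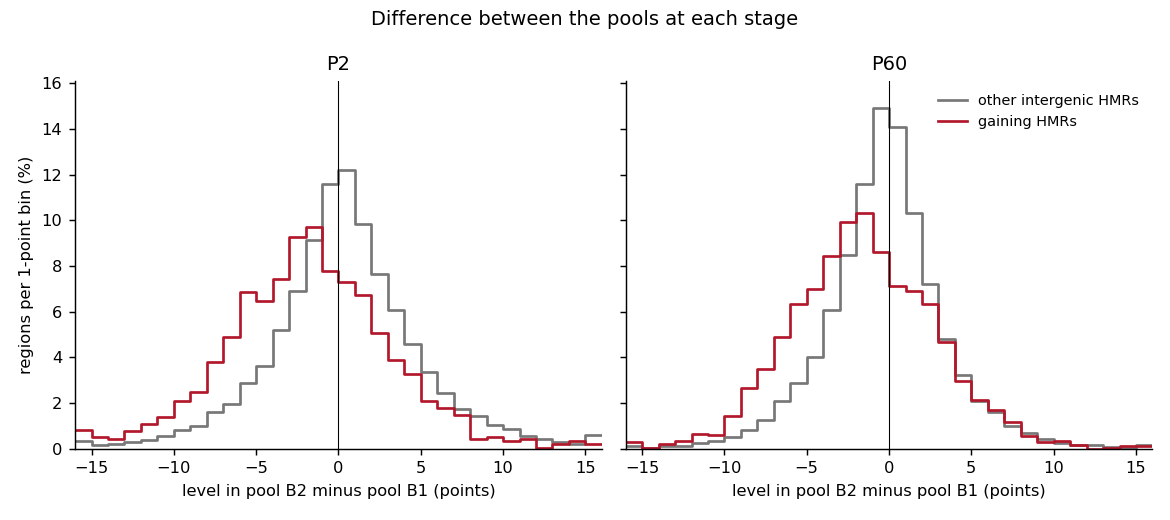
Distribution of the difference in level, pool B2 minus pool B1 (x axis, points), at P2 (left) and P60 (right), as the percentage of regions per 1-point bin (y axis), for the gaining regions (red) and the other intergenic HMRs (grey); the end bins hold all larger differences. The red curves are shifted to the left of 0, with medians of -1.82 and -1.60 points, and the grey ones centre near 0.

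Named examples show the size of the largest called differences between the pools. Near Ier5, an immediate early response gene, 7 CpGs at chr1:154985884-154985968 had 42.9% in B1 and 21.1% in B2 at P2 (difference -21.8 points, Fisher's exact test, adjusted p = 0.0122), and at P60 73.4% and 76.8%. Near Dmrt2, a DM-domain transcription factor gene, the P2 difference was -19.2 points (adjusted p = 0.00544, Fisher's exact test). The region near Adcy2, an adenylate cyclase gene, was at 38.0% and 19.6% at P2 (adjusted p = 0.0397, Fisher's exact test). In the other direction, chr6:51823997-51824442 near Skap2 had 16.9% in B1 and 32.8% in B2 at P2 (adjusted p = 0.00115, Fisher's exact test), with 60.7% and 59.5% at P60, and a region near Gata3 had 17.3% and 31.5% at P2 (adjusted p = 0.0136, Fisher's exact test). At P60, 29 bp with 8 CpGs upstream of Gramd1a were at 57.0% in B1 and 38.2% in B2 (adjusted p = 2.46e-04, Fisher's exact test), and chr19:38371911-38372087 upstream of Slc35g1 was at 75.1% and 59.1% (adjusted p = 0.00135, Fisher's exact test). A region 237035 bp upstream of Sox4, a transcription factor gene of endocrine differentiation, was lower in B1 at P60, with 36.4% against 52% (adjusted p = 0.0271, Fisher's exact test). These are extremes of the calls, and most of the 1811 regions did not pass the test at either stage.

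In sequence, the gaining regions were short, with few CpGs. Their median length was 398 bp with 8 CpGs, 2.26 CpGs per 100 bp and 49.0% GC, and the other intergenic HMRs had medians of 472 bp, 9 CpGs, 2.11 CpGs per 100 bp and 47.5% GC. Regions with 20 or more CpGs made up 5.63% (95% Wilson interval 4.66 to 6.79%) of the gaining set and 13.5% (13.1 to 13.9%) of the others. Read the other way, 2.35% of intergenic HMRs with 20 or more CpGs gained by the limit, against 7.38% of those with 8 to 11. Among those that did gain, the median gain in B1 was 33.6 points at 20 or more CpGs and 33.0 points at 5 to 7.

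Positions were away from genes by the choice of regions. The median distance to the nearest protein-coding start was 66273 bp, against 52516 bp for the other intergenic HMRs, and 695 regions (38.4%) lay over 100 kb away, against 34.5% of the others. Over 500 kb away were 2.26% of the gaining regions and 5.12% of the others. The midpoint fell in a long non-coding RNA gene in 48.7% (46.4 to 51.0%) of the gaining regions and in 42.3% (41.8 to 42.9%) of the others. The share of intergenic HMRs that gained ranged from 4.05% on chromosome 19 to 7.40% on chromosome 13. The regions lay close to each other in part, as 37.0% had another one within 50 kb, so they are not independent of one another.

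Consensus motifs were counted on both strands in 300-base windows at the midpoint. Of the 20 motifs searched, 7 concern islet and gut endoderm factors: TGTTTAC for forkhead factors, AGATAAG for GATA factors, GTTAATNAT for HNF1, ATCAATA for Onecut1, TAATTA for homeobox factors such as Pdx1 and Nkx6-1, CCATCTG for Neurod1 and Neurog3, and TGCTGAC for large MAF factors. A further 7 were GTTGCCA for RFX factors, TGANTCA for AP-1, TTCNNNGAA for STAT factors, ACATTCC for TEAD factors, ACAATGG for SOX factors, CCGGAAG for ETS factors and TGACGTCA for CREB. The remaining 6 were AAGGTCA for nuclear receptors, AGGGGGC for the core of the CTCF motif, CACGTG for E-box factors, TTCCCGC for E2F, CCAAT for NF-Y, and CACGNG for HES and HEY factors, which also takes in every E-box. A match is a stretch of letters and not evidence of binding, and the intervals below cover counting error only.

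The GATA-factor motif was found in 171 of the gaining regions (9.44%, 95% Wilson interval 8.18 to 10.9%). It was found in 4.79% (4.50 to 5.09%) of the stable intergenic HMRs, in 5.49% of all other intergenic HMRs and in 4.77% of all eligible HMRs, and in 8.30% (7.41 to 9.29%) of the gaining HMRs inside genes. GATA4 and GATA6 act in pancreas development. The Onecut1 motif was found in 6.74% (5.67 to 7.99%) of the gaining regions and 4.20% (3.93 to 4.49%) of the stable ones, and the TEAD motif in 6.57% (5.52 to 7.81%) and 4.39% (4.11 to 4.68%). In gaining HMRs inside genes the Onecut1 motif was in 5.44% (4.72 to 6.27%) and the TEAD motif in 4.60% (3.94 to 5.37%). Onecut1 (HNF6) acts in pancreatic progenitors, and TEAD factors are the DNA-binding partners of YAP. The nuclear receptor motif was in 7.29% (6.18 to 8.58%) of the gaining and 5.67% (5.35 to 6%) of the stable regions. Its interval in all other intergenic HMRs (6.41%, 6.14 to 6.68%) overlapped that of the gaining regions. Less frequent in the gaining than in the stable regions were the CTCF core, with 5.08% (4.16 to 6.19%) against 7.2% (6.85 to 7.57%), and the NF-Y motif, with 28.8% (26.8 to 31.0%) against 31.8% (31.2 to 32.5%). In all other intergenic HMRs the CTCF core was in 6.44% (6.18 to 6.72%), an interval that just overlapped that of the gaining regions. The NF-Y motif was in 31.7% of all other intergenic and 29.3% of all eligible HMRs. The forkhead (8.72% and 8.8%), Neurod1 and Neurog3 (10.7% and 10.1%), large MAF (7.79% and 7.10%) and RFX (5.08% and 5.16%) motifs had overlapping intervals in gaining and stable regions.

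By base composition, the GATA-factor motif was in 14.6% (11.7 to 18%) of the gaining and 6.07% (5.54 to 6.64%) of the stable regions in windows under 45% GC, and in 9.71% (7.84 to 12%) and 4.99% (4.52 to 5.51%) at 45 to 52% GC. At 52% GC or more the intervals overlapped, with 23 of 532 regions (4.32%, 2.90 to 6.40%) and 140 of 5165 (2.71%, 2.30 to 3.19%). The intervals of the Onecut1 motif also overlapped at 52% GC or more (2.07% and 1.39%), and those of the TEAD motif under 45% GC (5.35% and 4.60%). All intergenic HMRs were also grouped by mean gain. The GATA-factor motif was in 4.09% of those that lost methylation and in 5.42% at 0 to 10 points. Its share was 7.41% at 10 to 25, 8.79% at 25 to 40 and 10.3% (7.47 to 14.1%) at 40 points or more. The Neurod1 and Neurog3 motif was in 14.8% (11.4 to 19.1%) of the class at 40 points or more and in 9.87% to 10.8% of the 4 other classes. Within the gaining regions, those with the GATA-factor motif had a median smaller gain of 30.7 points and those without it 30.5 points. The sequences of the regions near Kcnj11 and Ghrl shown above each hold 1 such match.

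**Figure D5:**
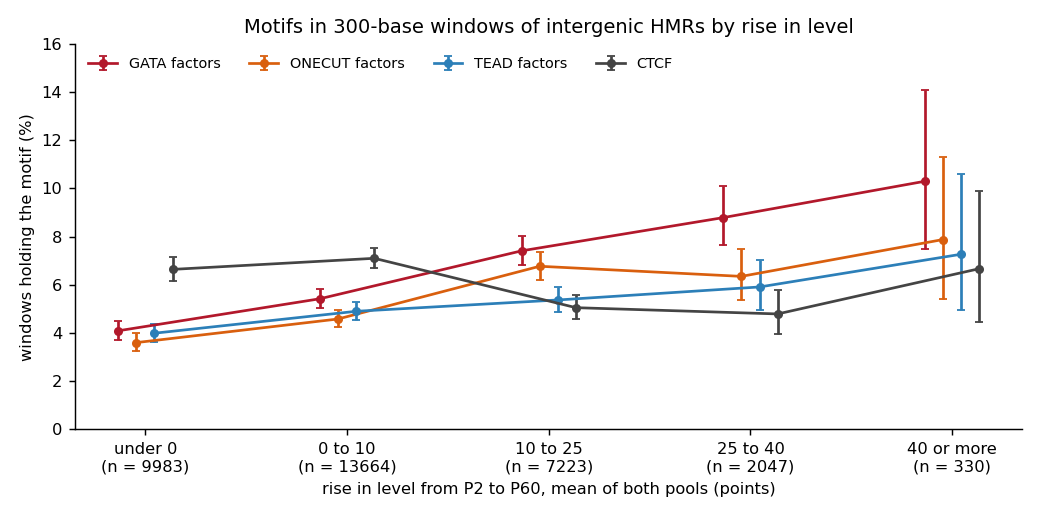
Percentage of 300-base windows of intergenic HMRs that hold a motif (y axis) by the mean gain of both pools from P2 to P60 (x axis, points, with the number of regions), for the motifs of GATA, ONECUT and TEAD factors and the core of CTCF. Points are shares and bars 95% Wilson intervals; the GATA-factor share runs from 4.09% to 10.3%, and the CTCF core is at 6.64% in the first class, 4.79% at 25 to 40 points and 6.67% in the last.

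By nearest protein-coding start, the 1811 regions fell to 1191 genes, and 135 genes had 3 or more. Nearness does not say which gene a region acts on. Most regions were found around Rps24 (11 of its 27 intergenic HMRs, all downstream at 163890 bp or more), a ribosomal protein gene, and Hes1 (10 of 33), the transcriptional repressor that carries Notch signals. Next came Zfp608 (9 of 57), a zinc finger gene, Gadd45g (9 of 31), a stress-response gene, Tle3 (9 of 38), a corepressor gene of the Groucho family, and Tbx3 (9 of 43), a T-box transcription factor gene. They were followed by 4931429L15Rik (8 of 33) and Enc1 (8 of 29). Around each of these 8 genes the remaining intergenic HMRs had medians of 8.11% to 14.0% at P2 and 15.7% to 21.3% at P60 in pool B1. The largest gain near 4931429L15Rik, at chr9:46245961-46246137, went from 23.5% and 22.9% to 81.0% and 83.4%, and that near Gadd45g, at chr13:52118448-52118859, from 33.3% and 25.4% to 81.6% and 81.0%. Both came close to their flanks, which were at 81.9% and 82.8% for the first and at 82.8% and 82.4% for the second. The largest gain near Tle3 went from 21.0% and 24.8% to 68.5% and 73.5%, that near Tbx3 from 29.8% and 23.1% to 72.8% and 66.3%, and that near Enc1 from 16.9% and 13.3% to 59.2% and 58.8%.

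The Hes1 neighbourhood shows how gaining regions were spread over a locus. Of the 10 regions, 7 lay upstream, from 3941 to 217736 bp, and 3 downstream, from 66268 to 82155 bp. In pool B1 they had 14.3% to 21.9% at P2 and 43.2% to 72.6% at P60, and in B2 12.4% to 32.2% and 47.3% to 64.4%. The one nearest to the start, chr16:29877931-29878454, went from 20.2% and 21.5% to 64.8% and 57.8%. The largest gain was at chr16:29963972-29964606, whose sequence is shown above, from 21.9% and 19.9% to 72.6% and 64.3%. At P60 this region was 8.33 points lower in B2 (Fisher's exact test, adjusted p = 0.00692), and at P2 the difference was -2.02 points (adjusted p = 0.833).

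Of 34 genes of islet transcription factors, 33 had intergenic HMRs nearest to them, 405 in all, and 47 of these HMRs (11.6%) at 17 genes gained, beside 5.45% of all intergenic HMRs. The median gain of the 405 was 8.78 points in B1, beside 3.89 points over all intergenic HMRs. After Hes1, Sox4 had most (7 of 32), then Rfx3, which encodes a factor of ciliary and endocrine genes (4 of 10), Sox9, a gene of pancreatic progenitors (4 of 61), and Prox1 (4 of 22). The region with the largest gain near Sox4 went from 27.0% and 22.4% to 69.1% and 68.0%. All 4 near Rfx3 lay upstream, from 26162 to 180664 bp, and the farthest went from 21.6% and 13.7% to 67.6% and 57.3%. At Sox9 the largest gain, 340184 bp downstream, went from 22.2% and 21.6% to 67.0% and 59.9%. The genes Foxa2 (3 of 35), Mnx1 (3 of 7) and Nkx6-1 (3 of 28), which encode factors of the β-cell programme, had 3 each.

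Of 82 intergenic HMRs at 20 genes of secretion and glucose sensing, 5 (6.10%) at 5 genes gained, near the 5.45% of all intergenic HMRs, and the median gain of the 82 was 1.70 points in B1, beside 3.89 points. The one intergenic HMR nearest to Kcnj11, which encodes the pore of the ATP-sensitive potassium channel, was among them. At chr7:45742511-45742940, 7462 bp downstream of the start, it went from 15.0% (95% Wilson interval 10.4 to 21.2%) and 15.5% (10.5 to 22.3%) to 47.7% (43.1 to 52.3%) and 48.2% (43.0 to 53.4%). Its 6 CpGs were uneven at P60, from 23.7% to 76.6% in B1. Upstream of Syt7, a calcium sensor of exocytosis, chr19:10359557-10359700 went from 19.7% and 19.6% to 57.2% and 57.1%. Near Slc30a8, the zinc transporter of insulin granules, the values were 16.6% and 22.4% at P2 and 53.9% and 61.9% at P60, and near Chga, a granule protein gene, 19.6% and 23.3% and then 57.9% and 53.9%.

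Of 146 intergenic HMRs nearest to genes of the cell cycle and neonatal growth, 17 (11.6%) at 7 genes gained, beside 5.45% of all intergenic HMRs, while the median gain of the 146 was 4.13 points in B1, near the 3.89 points over all. Myc, the growth-promoting transcription factor gene, had 5 of 27, from 35213 to 661291 bp away, and chr15:62000375-62000937 went from 18.9% and 17.1% to 64.4% and 66.7%. Dlk1, an imprinted gene of a Notch-ligand-like protein, had 4 of 17. A 1822 bp region 56378 bp downstream of Dlk1, inside a long non-coding RNA gene, went from 13.3% and 14.8% to 60.8% and 59.2%. The proliferation marker gene Mki67 had 3 of 35, from 367364 to 532810 bp upstream, and the cyclin gene Ccnd2 had 2 of 7. The region near Mki67 with the largest gain was at 72.0% in B1 and 59.2% in B2 at P60 (Fisher's exact test, adjusted p = 0.0120).

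Beside the same 5.45%, disallowed genes, which are kept low in mature β cells, had 10 of 88 (11.4%) at 4 genes: the RNA-binding protein gene Zfp36l1 (4 of 20), the chemokine gene Cxcl12 (3 of 16), the TGF-β signal transducer gene Smad3 (2 of 8) and the glutathione transferase gene Mgst1 (1 of 6). Their median gain was 7.98 points in B1 over the 88. The region with the largest gain near Cxcl12 went from 27.2% and 22.5% to 68.7% and 68.0%. Exocrine and other hormone genes had 2 of 36 (5.56%), about the share of all intergenic HMRs. The single intergenic HMR nearest to Ghrl, the ghrelin gene, at 1445 bp upstream, went from 7.94% and 12.6% to 52.5% and 46.9%, and one of 12 near the neuropeptide gene Npy went from 25.4% and 23.5% to 62.8% and 68.9%. Among the methylation enzymes 1 of 8 intergenic HMRs (12.5%) gained, near Tet2, from 25.3% and 19% to 50.6% and 46.3%. Wnt ligand and Frizzled receptor genes had 3 of 105 (2.86%), under the 5.45% of all, with the largest gain 33082 bp upstream of Wnt7b, from 22.1% and 22.5% to 76.2% and 74.1%, where the flanks stood at 77.4% and 74.2%. The median gains of these 3 lists in B1 were 2.37, 7.73 and 4.76 points, beside 3.89. The lists were described by counts, without a test.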

How the data were processed

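DNA of sorted β cells from mouse islets was sequenced by tagmentation-based WGBS in 12 libraries, 2 per subtype at P2 and 4 at P60. The authors trimmed reads with Trim Galore 0.6.6 and cutadapt 1.16, used FastQC and SAMtools 1.5 (submitters' processing notes), mapped them to mm39 with abismal and counted methylated and unmethylated reads per CpG with MethPipe. The deposited tables hold these read counts for 2 pools per stage, and the deposited HMR files of pools and single libraries were used as positions. The deposited lists of differing regions hold the authors' own comparison of the subtypes. They served only to name the pools, by their number of regions in each direction, so every subtype name of a pool rests on them. No value of theirs was used, and an overlap planned with them was not run.

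Levels were computed as methylated reads over all reads of a region, with a read counted once at each CpG it covers. Overlapping HMRs of the 4 pools were merged. Genes came from GENCODE M39 and sequence from GRCm39, where repeats are not marked, so a repeat share was not computed. Members, gene lists and motifs were chosen with earlier results of these data known. Named regions were the 8 largest smaller gains among members with 5 or more CpGs, 100 or more reads per pool, no mean depth over 3 times the median region and an HMR in all P2 and no P60 library; up to 4 genes per list and 8 genes overall with most members, shown by their largest gain; 3 regions on each side of the limit; and the 3 largest called pool differences per direction and stage, of which some are printed.

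For pools, Fisher's exact test (two-sided, on reads) was used with Benjamini-Hochberg adjustment at 0.05 over all tested HMRs. Libraries were compared with two-sided exact permutation tests. The labels do not state that libraries of one group and sex came from separate mice, so p-values measure the spread between libraries, which may be technical. Pairing of the P60 libraries by number was examined through the correlation, across HMRs, of their deviations from the group mean. Same-numbered libraries, which share a sex label and a run prefix, had correlations of 0.145, 0.206, 0.312 and 0.140, all above 0.1, and were treated as paired in an alternative. Some same-sex libraries of different number correlated as highly (M-N+ 2 with M+N+ 4 at 0.238, M-N+ 3 with M+N+ 1 at 0.205), so the number is not singled out. Pairing was not examined at P2. Wilson 95% intervals were used for shares. The promoter of 1 marker gene is not reported here. Python 3.11.15, SciPy 1.17.1 and pandas 2.3.3 were used.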

Additional observations from a re-analysis of the deposited data

How the results depend on the processing

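The number of gaining regions depended on the limits and not on the read minimum. It was 1822 and 1794 at a minimum of 20 and 100 reads, 1834 with the mean over CpGs (1697 shared), and 1811 without a length limit or with regions of over 3 times the median depth left out. It moved to 3076 at a gain of at least 20 points, to 964 at 30 points and to 861 when genes of every biotype were avoided. The median gain stayed between 28.9 and 37.3 points in B1 and between 28.9 and 37.6 in B2. Regions called lower in B2 at P60 went from 28 to 15 when a difference of at least 10 points was also required, and the other counts of calls stayed within 1.5 times. For the share of regions with an HMR, the subtype difference at P60 was -0.359 points within replicates 1 and 2 and 0.359 within replicates 3 and 4, 0 points in the paired comparison (replicate block), and leaving out single libraries gave -0.152 to 0.170 points. The sex difference at P60 turned to -0.0138 points at an overlap of 50% of the region and to -10.2 points after the share of other intergenic HMRs was subtracted, which by construction carries the sex difference of those HMRs. Single libraries left out gave 0.216 to 0.474 points, and within replicates 1 and 2 and within 3 and 4 it was 0.304 and 0.359. At P2 the subtype difference was 8.78 to 10.7 points under these changes, 9.14 in the paired test (replicate block, exact p = 0.5, its smallest, where by the X chromosome each pair joins a male and a female library) and 3.98 to 14.3 with single libraries left out. The P60 shares are near 0 by the choice of regions, so these P60 values say nothing about stability. Depth limits single regions: a median region resolves gains to about 7 points if the counts at its CpGs are taken as independent. The levels of single libraries are not analysed here.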
